A study of Mus musculus with 9 samples.

Results

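The 7 genes described here encode subunits of the receptors for GABA, the main inhibitory neurotransmitter of the brain, and were followed in the RNA that co-precipitated with CELF2: the GABA-A receptor genes Gabra2, Gabra3, Gabra4, Gabra5, Gabrb1 and Gabrb2 and the GABA-B receptor gene Gabbr1. These 7 genes were taken by name from the 21250 protein-coding genes with at least 1 row in the deposited table. Together they held 13 of its 107384 transcript rows. The counts of all rows of a gene were summed, and each row was also examined on its own. All 7 genes and all 13 rows passed the filter on low counts, under which 15263 genes were tested.

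CELF2 is an RNA-binding protein that moves between nucleus and cytoplasm and acts on the splicing, stability and translation of mRNAs. RNA immunoprecipitation followed by sequencing (RIP-seq) was done on cortices of mice at postnatal day 0 that were heterozygous for the knock-in (KI) allele of Celf2 encoding p.R493H. An anti-CELF2 antibody recovered RNA from the cytoplasmic fraction (CELF2-KI RIP, 3 libraries), normal rabbit IgG served as the control for unspecific recovery (IgG RIP, 3 libraries), and an aliquot of the fraction that was not precipitated gave the starting RNA (input, 3 libraries). All 9 libraries carried the same heterozygous genotype, with no wild-type group, so that the comparisons show which mRNAs were recovered with the antibody and not what the variant changed. The antibody was not stated to separate the protein of the KI allele from that of the other allele. The fraction held RNA of neurons, radial glia, astrocytes, oligodendrocyte precursors (OPCs), microglia and endothelial cells. The cell type behind a recovered mRNA therefore cannot be told. Precipitates and input were taken from the same kind of fraction, so the comparisons are of recovery and not of cell numbers.

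GABA-A receptors are chloride channels assembled from 5 subunits, most often alpha, beta and gamma subunits together, and the alpha subunit present sets much of where the receptor sits and how it responds. GABA-B receptors are G protein-coupled receptors made of GABBR1, which binds GABA, and GABBR2, which couples to the G protein. In the newborn cortex GABA signalling is still maturing, and the set of alpha subunits in use changes as neurons develop.

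Most of the GABA-A genes lie in clusters of receptor genes (coordinates of GRCm38, the assembly called mm10 in the submitters' notes). Gabra2 (chr5:70958392-71095849), Gabra4 (chr5:71569734-71658308) and Gabrb1 (chr5:71657921-72149572) follow Gabrg1 on chromosome 5. The annotated spans of Gabra4 and Gabrb1 overlap by 388 bp. Gabra5 (chr7:57407669-57591016) lies beside Gabrg3, and Gabrb2 (chr11:42419515-42632591) lies beside Gabra6. Gabra3 (X:72432676-72656919) stands between Gabre and Gabrq. Gabbr1 (chr17:37045966-37074305) is in no such cluster, and its partner Gabbr2 is on chromosome 4.

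Library depth differed between the groups. Protein-coding genes received 13519265 to 16836385 estimated counts in CELF2-KI RIP libraries, 9344325 to 14960841 in those of IgG RIP and 55229679 to 78483586 in those of input. IgG RIP libraries 1, 2 and 3 gave 34.95%, 32.95% and 10.82% of their counts to the row of the 45S ribosomal RNA precursor, against 0.405% to 1.755% in the other 6 libraries. Celf2 mRNA itself, the transcript of the precipitated protein, was higher in CELF2-KI RIP than in IgG RIP by 1.46 (SE 0.18) and than in input by 1.11 (SE 0.18) on the log2 scale. The markers of cell types moved too. The 7 markers of excitatory neurons summed to 1672 to 2280 CPM in CELF2-KI RIP libraries, 894 to 1041 in those of IgG RIP and 971 to 1136 in those of input, and the 7 markers of inhibitory neurons to 599 to 736, 346 to 399 and 485 to 497. The 6 radial glial markers summed to 125 to 169, 303 to 348 and 367 to 385 CPM in the same order, and no marker of these 3 lists was at 0 in any library. Astrocyte markers spanned 819 to 1181, 594 to 641 and 1003 to 1166 CPM, OPC markers 548 to 655, 546 to 573 and 489 to 557, and endothelial markers 158 to 229, 147 to 325 and 198 to 309. Microglial markers spanned 91.2 to 124, 49.1 to 66.1 and 91.8 to 116 CPM. Of the 5 markers in each of these lists, 1 astrocyte and 2 microglial markers were at 0 in at least 1 library. By the thresholds given below, 4 of the 7 excitatory and 2 of the 7 inhibitory neuron markers were called higher than IgG RIP. Of the 6 radial glial markers 3 were lower. Against input 3 excitatory markers were higher and 3 radial glial markers lower, while inhibitory markers went both ways, 1 higher and 1 lower (Dlx2). Called lower than IgG RIP and than input were also 0 and 2 OPC, 1 and 2 endothelial and 1 and 2 microglial markers. Called higher were 1 and 0 astrocyte and 1 and 1 microglial markers. The microglial marker called higher than input had 0, 38 and 38 counts in CELF2-KI RIP replicates 1, 2 and 3 and 0 in every input library. Its groups overlapped at 0, so nothing is read from that call. Over all genes tested, 13.4% were called higher and 13.5% lower than IgG RIP, and 14.6% and 15.5% than input. The part of these differences in the receptor values below was not tested.

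Values below are CPM (counts scaled to a common library size), with library sizes adjusted by TMM, the trimmed mean of M values. Transcript lengths were not used here, so a gene's CPM is compared between libraries and never with that of another gene. A gene was called when edgeR's quasi-likelihood test gave a Benjamini-Hochberg adjusted p (FDR) below 0.01 together with a difference of 2-fold or more, and a gene called higher against both controls is termed a target.

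Across the 7 genes, the GABA-B gene Gabbr1 and the beta subunit gene Gabrb2 were called higher when CELF2-KI RIP was set against IgG RIP, and 0 of the 7 lower, also at an unadjusted p under 0.05 and by DESeq2. Among all genes tested, 13.4% were called higher and 13.5% lower in that comparison. Against input, Gabbr1 was called higher and Gabra5 lower, with backgrounds of 14.6% and 15.5%. These backgrounds moved with the scaling of the libraries: higher calls made up 49.8% of all calls against IgG RIP and 48.5% against input, but 21.5% to 44.7% and 12.9% to 36.6% under 4 other scalings. Gabbr1 was thus the 1 target among the 7, and 7.58% of all genes tested were targets. Over the 7 genes the median log2 fold change came to 0.22 against IgG RIP and 0.06 against input, beside medians of -0.06 and 0.19 over all genes tested. With so few genes beside those backgrounds, nothing is read from the counts about the 7 as a group, and each gene is described on its own.

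**Figure D1:**
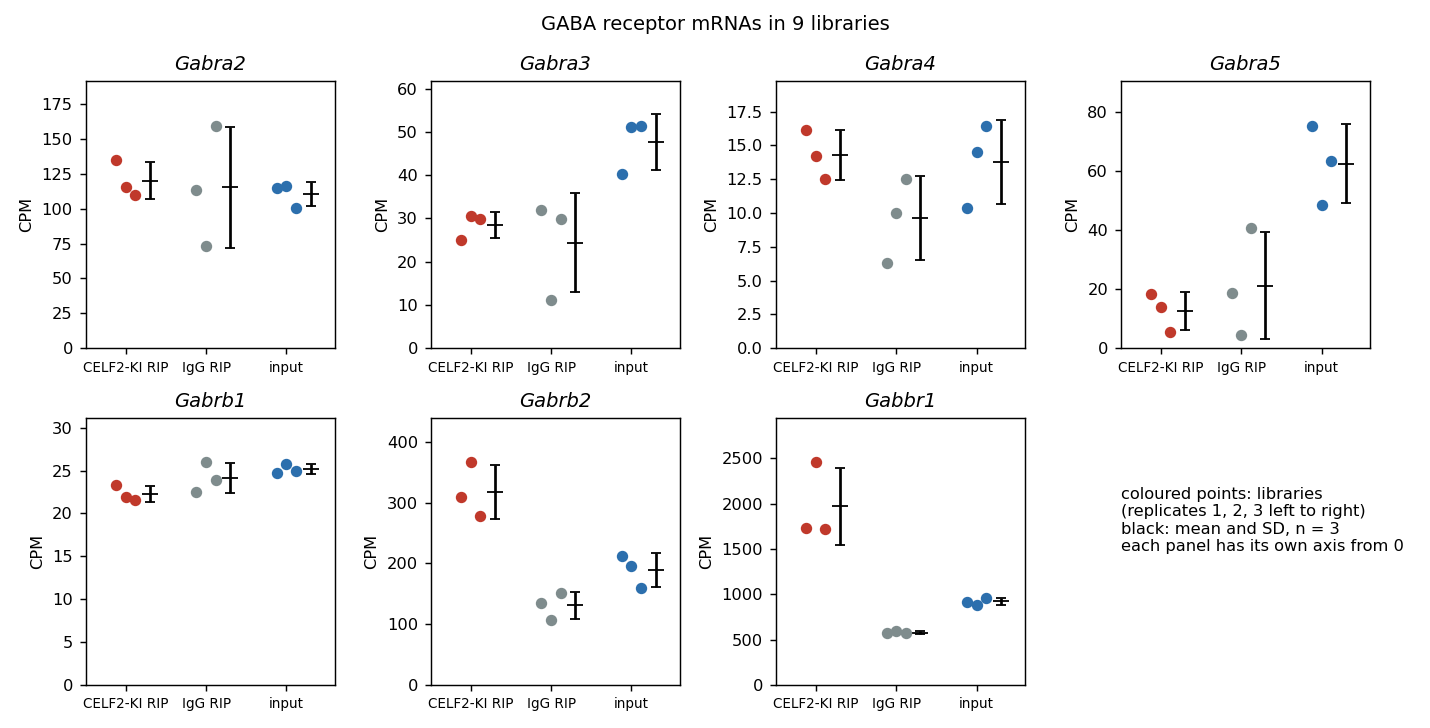
Level of each gene (CPM, vertical axis from 0, its own scale in each panel) in the 3 libraries of CELF2-KI RIP (red), IgG RIP (grey) and input (blue), with the mean and SD (n = 3) in black. For Gabbr1 and Gabrb2 all 3 CELF2-KI RIP points lie above the other 6, whereas those of Gabra3 and Gabra5 lie below all input points.

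Gabbr1, whose product carries the GABA-binding site of the GABA-B receptor, showed the clearest recovery. Its level was 1731, 2458 and 1720 CPM in CELF2-KI RIP replicates 1, 2 and 3, against 568, 591 and 572 CPM in IgG RIP and 920, 886 and 958 CPM in input. The lowest CELF2-KI RIP library therefore stood above the highest library of either control, replicate 2 was the highest of all, and the controls varied little among themselves (SD 12.5 and 36.1 CPM). The difference from IgG RIP was 1.77 on the log2 scale (SE 0.14, 95% interval 1.45 to 2.09), that is 3.41-fold, with an adjusted p of 1.12e-05 in edgeR's quasi-likelihood test. This change was larger than that of 97.3% of the genes tested. It was called under each of the alternatives tried, with values from 1.39 (total counts) to 1.86.

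Against input the excess of Gabbr1 was smaller, 1.10 (SE 0.14, 95% interval 0.78 to 1.41) or 2.14-fold, with an adjusted p of 9.23e-05 in edgeR's quasi-likelihood test. It ranked above 84.3% of the genes tested. The direction and an FDR under 0.01 held under every scaling, but the 2-fold mark did not. The log2 fold change was 0.96 with DESeq2 size factors, 0.86 with upper-quartile scaling, 0.70 with TMM over coding and noncoding genes, and 0.62 with total counts. It was also 0.91 without CELF2-KI RIP replicate 2, the highest library, 0.95 without input replicate 2 and 0.985 without IgG RIP replicates 1 and 2 together, so that the standing of Gabbr1 as a target rested on the scaling and on those libraries. Measured from the median of all genes under TMM, the excess over input was 0.90, under 2-fold. The corresponding excess over IgG RIP was 1.83, above 2-fold. The other 4 scalings gave 0.89 to 0.90 and 1.81 to 1.82. A scaling moves all genes of a library nearly alike, so taking off the median largely removes it. The likeness of these values between scalings is therefore by construction and is no check on the result. In IgG RIP, Gabbr1 was 0.68 (SE 0.14) below input on the log2 scale, with an adjusted p of 0.00425 in edgeR's quasi-likelihood test and less than a 2-fold change. Of all genes tested, 11.2% were lower in IgG RIP than in input at this FDR whatever the size.

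Gabrb2 encodes the beta2 subunit, which is widely used in the mature brain. Its level was 309, 366 and 278 CPM in CELF2-KI RIP libraries, 135, 107 and 151 CPM in those of IgG RIP and 213, 196 and 159 CPM in those of input. Each CELF2-KI RIP library exceeded every control library, and each IgG RIP library was below every input library. The excess over IgG RIP was 1.28 (SE 0.17, 95% interval 0.91 to 1.65) on the log2 scale, 2.43-fold, with an adjusted p of 0.000118 in edgeR's quasi-likelihood test, and was larger than that of 90.7% of the genes tested. With total counts it was 0.91, and without IgG RIP replicates 1 and 2, the libraries richest in ribosomal precursor, 0.97, both short of 2-fold. Over input the excess was 0.75 (SE 0.16), 1.68-fold, with an adjusted p of 0.00267 in edgeR's quasi-likelihood test. It passed the FDR but not the fold. Of all genes tested, 26.8% were higher than input at this FDR, those past 2-fold included. In edgeR's quasi-likelihood test the excess over input missed the FDR with total counts (0.28, adjusted p 0.149) and upper-quartile scaling (0.51, adjusted p 0.0201). TMM over coding and noncoding genes (0.355, adjusted p 0.091) and the 2 groups alone (0.514, adjusted p 0.0112) missed it too. Without CELF2-KI RIP replicate 2, input replicate 2 or input replicate 3 the adjusted p was 0.0113, 0.0188 and 0.014 in the same test.

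Gabrb1 encodes the other beta subunit of the set and varied less between the groups. Its level was 23.4, 22.0 and 21.5 CPM in CELF2-KI RIP libraries, 22.5, 26.0 and 23.9 CPM in those of IgG RIP and 24.7, 25.8 and 25.0 CPM in those of input. CELF2-KI RIP and IgG RIP overlapped, and the CELF2-KI RIP libraries lay just below all input libraries. The log2 difference was -0.11 from IgG RIP (95% interval -0.38 to 0.16) and -0.18 from input (95% interval -0.44 to 0.09), so that both intervals left out a 2-fold change in either direction. In edgeR's quasi-likelihood test Gabrb1 in CELF2-KI RIP against input was at -0.64 with total counts (adjusted p 0.00243) and at -0.56 with TMM over coding and noncoding genes (adjusted p 0.00537), past the FDR but short of 2-fold. The ratio of Gabrb2 to Gabrb1 counts, which does not depend on library scaling, was 13.2, 16.7 and 12.9 in CELF2-KI RIP libraries, 6.02, 4.11 and 6.32 in those of IgG RIP and 8.62, 7.60 and 6.35 in those of input.

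**Figure D2:**
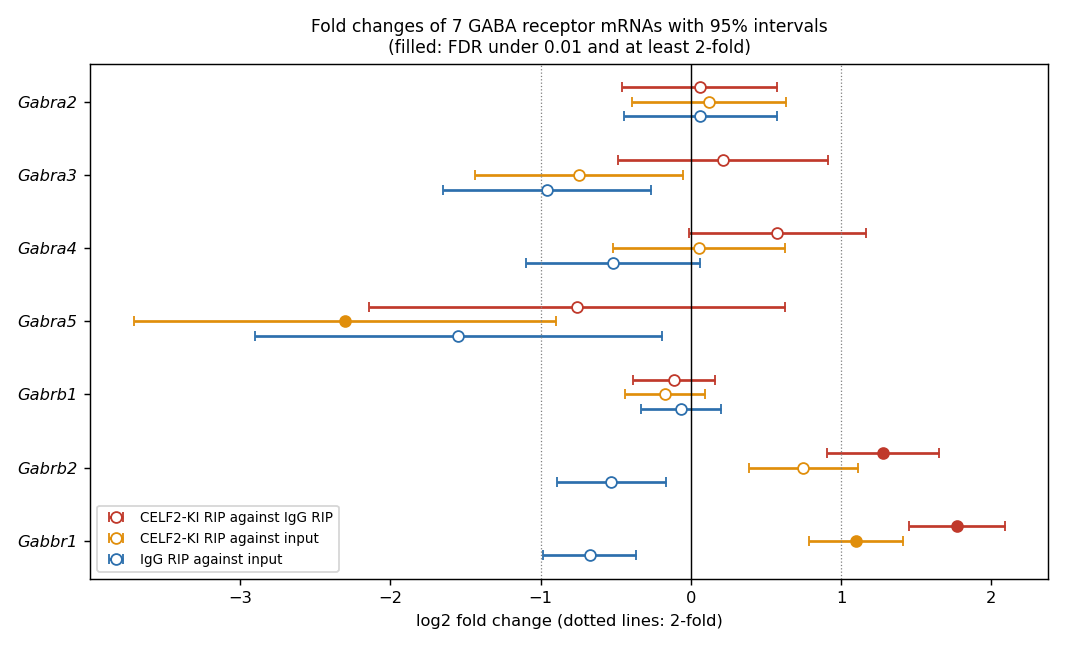
Log2 fold change (horizontal axis) of the 7 genes with 95% intervals for CELF2-KI RIP against IgG RIP (red), CELF2-KI RIP against input (orange) and IgG RIP against input (blue); filled points passed FDR under 0.01 and 2-fold (dotted lines). Gabbr1 (1.77 and 1.10) and Gabrb2 (1.28 against IgG RIP) lie to the right, Gabra5 (-2.30 against input) to the left, and the intervals of Gabrb1 are the narrowest. The comparisons share libraries.

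Of the 4 alpha subunit genes, 0 were called higher against either control in edgeR's quasi-likelihood test, and 0 had an unadjusted p under 0.05 in that direction or a DESeq2 call. Gabra2, whose alpha2 subunit is prominent in the developing forebrain, reached 135, 116 and 110 CPM in CELF2-KI RIP libraries, 113, 73.1 and 160 CPM in those of IgG RIP and 115, 116 and 100 CPM in those of input. IgG RIP held both the lowest and the highest of these 9 values, and the groups overlapped. The log2 difference was 0.06 from IgG RIP (95% interval -0.46 to 0.57) and 0.12 from input (95% interval -0.39 to 0.63), which left out a 2-fold change but not smaller ones. Its sign changed with the scaling, to -0.30 and -0.34 with total counts, and no direction is given.

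Gabra3 encodes alpha3, a subunit expressed early in cortical development. It stood at 25.0, 30.5 and 29.8 CPM in CELF2-KI RIP libraries, 31.9, 11.2 and 29.9 CPM in those of IgG RIP and 40.2, 51.2 and 51.5 CPM in those of input. Every library of either precipitate lay below every input library, and IgG RIP replicate 2 was the lowest. The log2 difference from input was -0.74 for CELF2-KI RIP (95% interval -1.44 to -0.05, adjusted p 0.0602) and -0.96 for IgG RIP (95% interval -1.65 to -0.27, adjusted p 0.0329) in edgeR's quasi-likelihood test, neither past the threshold. Gabra3 was called lower than input with total counts (-1.21, adjusted p 0.00676 in edgeR's quasi-likelihood test), and in IgG RIP against input by the DESeq2 Wald test (-1.03, adjusted p 0.00451). The 2 precipitates differed by 0.22 (SE 0.32), a value whose sign changed under 3 scalings, down to -0.15 with total counts.

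Gabra4 encodes alpha4, known mainly from extrasynaptic receptors. It had 16.2, 14.2 and 12.5 CPM in CELF2-KI RIP libraries, 6.32, 10.0 and 12.5 CPM in those of IgG RIP and 10.3, 14.5 and 16.5 CPM in those of input. CELF2-KI RIP replicate 3 and IgG RIP replicate 3 met at 12.5 CPM, and the input libraries spanned the range of CELF2-KI RIP. The log2 difference from IgG RIP was 0.58 (95% interval -0.02 to 1.17, adjusted p 0.0901 in edgeR's quasi-likelihood test). From input it was 0.06 (95% interval -0.52 to 0.63), with a sign that changed under the other scalings. Only 101 to 202 counts per precipitate library lay behind these values.

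Gabra5 encodes alpha5, a subunit of mostly extrasynaptic receptors of the hippocampus and deep cortical layers. Its level was 18.2, 13.9 and 5.62 CPM in CELF2-KI RIP libraries, 18.6, 4.46 and 40.5 CPM in those of IgG RIP and 75.4, 48.5 and 63.5 CPM in those of input. Both precipitates fell below all input libraries without exception, and IgG RIP varied most, its replicates 2 and 3 being the lowest and highest of the 6 precipitate libraries. The log2 difference of CELF2-KI RIP from input was -2.30 (SE 0.63, 95% interval -3.71 to -0.90), a ratio of 0.202, with an adjusted p of 0.00947 in edgeR's quasi-likelihood test. The call sat at the edge of the threshold. With the replicate number as a block the difference was -2.23 with an adjusted p of 0.0174, and leaving out CELF2-KI RIP replicate 1, 2 or 3, IgG RIP replicate 1, or input replicate 1, 2 or 3 gave adjusted p from 0.0134 to 0.0371 in edgeR's quasi-likelihood test, with differences from -2.67 to -1.96. With curated rows alone it was -1.27 (adjusted p 0.496 in the same test). IgG RIP was -1.55 from input (SE 0.61, adjusted p 0.067 in edgeR's quasi-likelihood test; without IgG RIP replicate 3 it was -2.39, adjusted p 0.00706), and the 2 precipitates differed by -0.76 (95% interval -2.14 to 0.63), so that a loss in any precipitate and a difference of the CELF2 precipitate cannot be told apart.

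Groups whose libraries did not overlap were counted as well. Against IgG RIP, 2 of the 7 genes had all CELF2-KI RIP libraries above all IgG RIP libraries and 0 had them all below, beside 30.0% and 27.4% of all genes tested. Against input the counts were 2 above and 3 below, the latter Gabra3, Gabra5 and Gabrb1, beside 42.1% and 31.8%. In IgG RIP against input, 4 genes lay wholly below (Gabra3, Gabra5, Gabrb2 and Gabbr1) and 0 above, beside 29.4% and 27.1% of all genes. Of the 7, 0 were called in that control comparison in edgeR's quasi-likelihood test, in which 6.79% of all genes were called higher and 5.01% lower. The same 4 genes had an unadjusted p under 0.05 (Gabra3 0.0116, Gabra5 0.029, Gabrb2 0.00888 and Gabbr1 0.000664, in the same fit over all genes by edgeR). The share of all genes at that unadjusted cut is not given here, so nothing is read from this count. By the DESeq2 Wald test 1 of the 7 was called lower.

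The make-up of the receptor counts within a library needs no scaling between libraries. Of the counts of the 6 GABA-A genes, Gabrb2 took 58.6%, 65.1% and 60.9% in CELF2-KI RIP libraries, 41.3%, 46.1% and 36.2% in those of IgG RIP and 44.5%, 43.4% and 38.2% in those of input. All 3 CELF2-KI RIP shares lay above all control shares (exact permutation test, two-sided p = 0.1 against each control, the smallest value that 3 against 3 libraries allow). Gabra5 took 3.47%, 2.48% and 1.23%, whereas the shares in IgG RIP were 5.67%, 1.93% and 9.71% and those in input 15.8%, 10.7% and 15.3%. Its share overlapped between the precipitates and was lower than in every input library. Gabra2 took 25.6%, 20.6% and 24.0% in CELF2-KI RIP, below the 34.5%, 31.6% and 38.2% in IgG RIP, whereas the input shares of 24.0%, 25.7% and 24.2% overlapped with CELF2-KI RIP. Gabrb1 took 3.90% to 4.70% in CELF2-KI RIP libraries, below its 5.72% to 11.2% in those of IgG RIP and 5.16% to 6.01% in those of input. The shares of a library sum to 100%, so a rise of one gene lowers the others.

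**Figure D3:**
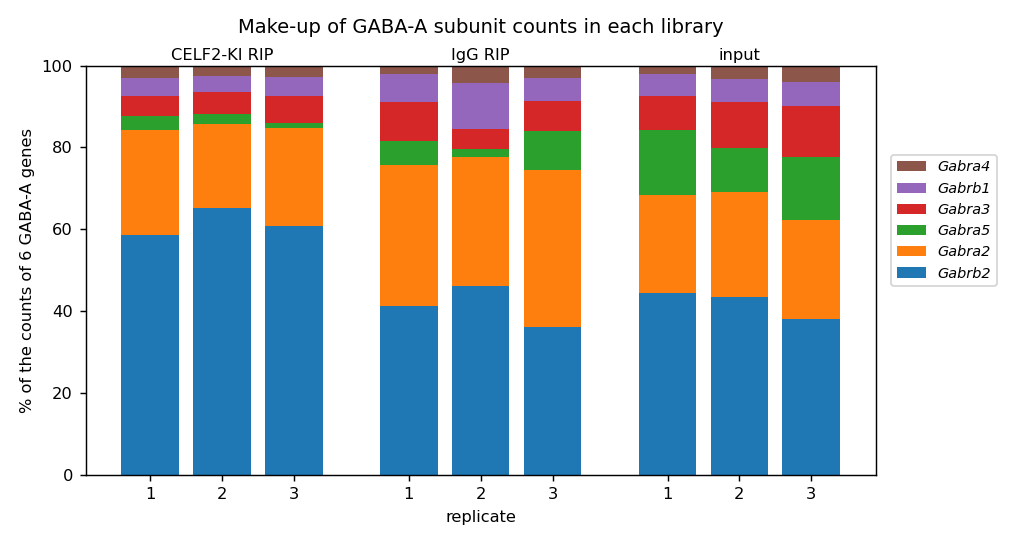
Share (%, vertical axis) of each of 6 GABA-A genes in their summed counts, 1 bar per library, replicates 1 to 3 from left to right. Gabrb2 (blue) fills 58.6% to 65.1% of the CELF2-KI RIP bars and 36.2% to 46.1% of the others, and Gabra5 (green) is widest in input (10.7% to 15.8%). Shares also depend on transcript length, so the height of 1 gene is read across bars only.

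With Gabbr1 added, its share of the counts of all 7 genes was 76.7%, 81.4% and 79.0% in CELF2-KI RIP libraries, 63.4%, 71.9% and 57.8% in those of IgG RIP and 65.8%, 66.2% and 69.8% in those of input. The CELF2-KI RIP shares again lay above all others (exact permutation test, two-sided p = 0.1 against each control, the smallest possible). For each count of the 6 GABA-A genes there were 3.29, 4.37 and 3.76 counts of Gabbr1 in CELF2-KI RIP libraries, 1.73, 2.55 and 1.37 in those of IgG RIP and 1.92, 1.96 and 2.31 in those of input. The summed level of the GABA-A genes was 526, 563 and 457 CPM, 328, 232 and 417 CPM, and 478, 452 and 416 CPM in the same order of groups, overlapping between CELF2-KI RIP and input but not between CELF2-KI RIP and IgG RIP.

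Individual transcript rows were examined next. Gabra3, Gabra4, Gabrb1 and Gabrb2 had 1 row each, Gabra2 had 2, Gabbr1 3 and Gabra5 4. The gene table lists 37 transcripts for the 7 genes, of which 24 had no row here. Rows of a gene share most of their sequence, so that the split between them is an estimate and not a direct count. In the fit over 39129 rows the median of all rows was -0.20 against IgG RIP and -0.14 against input, lower than in the gene fit by 0.14 and 0.34, and row values are to be read from there. Of the 13 rows, 3 were called higher than IgG RIP and 1 lower, beside 3.19% and 3.14% of all rows. Against input 0 were called higher (0.940% of all rows were), with 2 at an unadjusted p under 0.05, 1 called with the gene fit's scaling factors and 1 by the DESeq2 Wald test, and 1 was called lower (4.51%). In IgG RIP against input 1 row was called lower, as were 1.65% of all rows, while 0.879% of all rows were called higher.

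The main Gabbr1 row, NM_019439.3, carried 95.7% to 99.3% of the gene's counts in all 9 libraries. It was higher than IgG RIP by 1.51 (SE 0.13, adjusted p 0.000716 in edgeR's quasi-likelihood test) and than input by 0.59 (SE 0.13, adjusted p 0.0202 in the same test). The predicted row XM_006524632.1 had 503, 768 and 737 estimated counts in CELF2-KI RIP and 740, 1085 and 1325 in input, but less than 1 count in each IgG RIP library. It was therefore at least 200-fold higher in CELF2-KI RIP than the floor of 3 counts per library in IgG RIP, and IgG RIP was at least 76.7-fold lower than input. Its share of Gabbr1 was 2.33%, 2.41% and 3.83% in CELF2-KI RIP and 1.28%, 1.35% and 2.24% in input, each CELF2-KI RIP share lying above every input share. Against input the row was not called (1.38, adjusted p 0.0539 in edgeR's quasi-likelihood test). Rows were tested against the other rows of their gene for CELF2-KI RIP against IgG RIP only. There it was the 1 of the 9 rows in genes with several rows that passed (adjusted p 9.13e-06, edgeR's test of differential transcript use), beside 0.718% of all rows so tested. The noncoding row XR_001782091.1 ranged from 0 to 160 counts in the precipitates.

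The single Gabrb2 row, NM_008070.3, was called higher than IgG RIP at 1.05 (SE 0.18, adjusted p 0.00688 in edgeR's quasi-likelihood test). Leaving out any library except IgG RIP replicate 3 ended this row call (adjusted p up to 0.0239 in edgeR's quasi-likelihood test), as did the replicate block (0.0309), although the difference stayed between 0.91 and 1.17. The row did not pass against input, at 0.26 (SE 0.18).

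The rows of Gabra5 did not divide alike in the groups. XM_006540560.3 held 82.6%, 74.6% and 82.0% of the gene in input, but 55.2%, 47.3% and 0.06% in CELF2-KI RIP and 27.3%, 13.1% and 74.1% in IgG RIP. XM_006540557.3 held 0.97% to 2.66% in input and 20.7%, 39.7% and 66.1% in CELF2-KI RIP, while its shares in IgG RIP were 0%, 61.2% and 8.56% and overlapped with those of CELF2-KI RIP. XM_006540556.3 was at 0 in all 3 CELF2-KI RIP libraries, while IgG RIP libraries held 165, 11.6 and 98.1 estimated counts and input libraries 302, 495 and 268. With a floor of 3 counts per library it was at least 29.2-fold lower than IgG RIP and at least 27.6-fold lower than input. These are the calls of a lower row. Both were lost with the replicate block and when any library other than IgG RIP replicate 2 was left out. The whole gene had 63 to 228 counts in the CELF2-KI RIP libraries. In CELF2-KI RIP against IgG RIP, no Gabra5 row passed the test against the other rows of its gene. Of Gabra2, NM_008066.3 held 77.7%, 67.3% and 77.5% in CELF2-KI RIP libraries, 50.3%, 78.0% and 63.0% in those of IgG RIP and 73.8%, 75.2% and 76.6% in those of input, the widest spread being in IgG RIP.

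**Figure D4:**
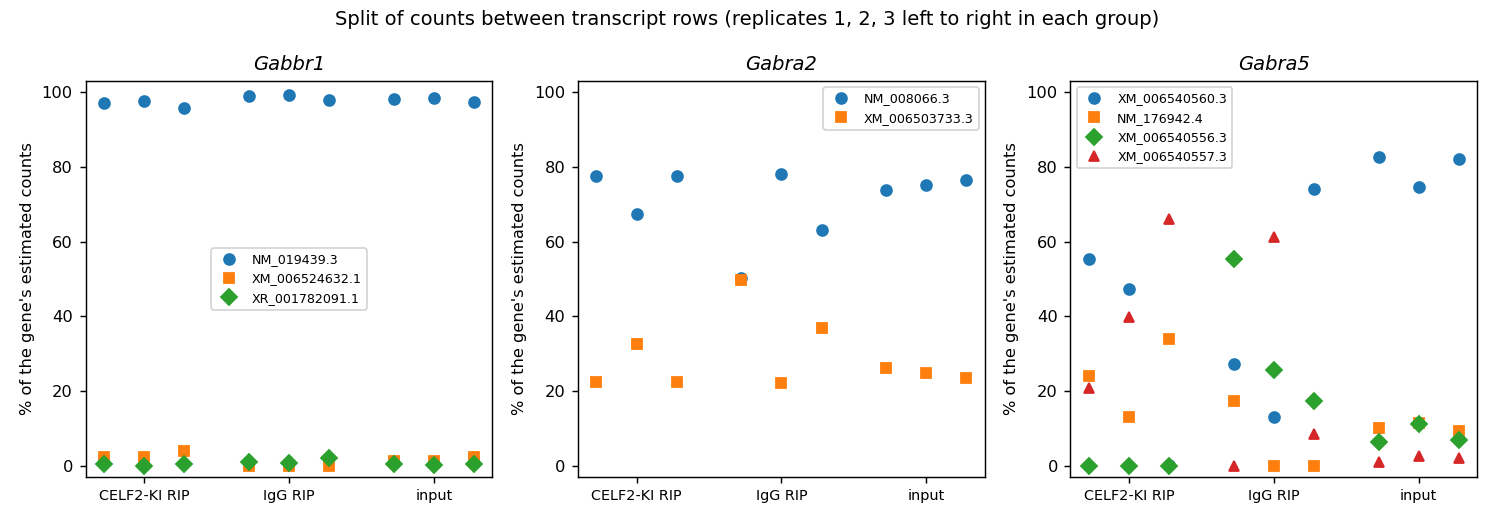
Share of a gene's estimated counts (%, vertical axis) held by each transcript row of Gabbr1, Gabra2 and Gabra5 in the 9 libraries. Gabbr1 stays at 95.7% or more in 1 row, whereas the Gabra5 rows change places between groups and between replicates of 1 group.

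The genes with the most similar profile over the 9 libraries, by Pearson's r of log2 CPM and given as a description, were Bcl2l13 and Fam234b (r = 0.997 each) and Lrfn1 (r = 0.997) for Gabbr1. For Gabrb2 they were Fundc1 (0.990), Cd44 (0.988) and Slc22a3 (0.987), and for Gabra5 they were Zfp947 (0.986), Dmrt3 (0.969) and Pcmt1 (0.956). Those of Gabrb1 were Thap7 (0.970), Tmem204 (0.963) and Car4 (0.955), and those of Gabra3 were Ppp1r36 (0.979), Tbxa2r (0.960) and Rsl1 (0.957). Gabra2 was followed most closely by Setdb2 (0.961), Fancb (0.956) and 6720489N17Rik (0.956), and Gabra4 by Dse (0.954), Rhoj (0.930) and Tmem60 (0.926). These are the 3 highest of 15263 genes each, over libraries that fall into 3 groups.

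The remaining receptor subunit genes gave the context. Of 14 listed, 9 were tested, and 5 (Gabra6, Gabrp and Gabrr1 to Gabrr3) were too low. Against IgG RIP 3 were called higher, among them Gabrg3 and Gabrq, and 1 lower (Gabrd), with a median log2 fold change of 0.41. Against input 2 were higher (Gabrg3 and Gabrq) and 1 lower (Gabrd), with a median of -0.17. Over all genes tested, 13.4% were higher and 13.5% lower than IgG RIP, and 14.6% and 15.5% than input. The medians over all genes were -0.06 and 0.19. With 9 genes beside those shares, nothing is read from the counts.

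Gabbr2, the partner of Gabbr1, measured 189, 188 and 217 CPM in CELF2-KI RIP libraries, 173, 169 and 147 CPM in those of IgG RIP and 232, 222 and 224 CPM in those of input. CELF2-KI RIP lay between the controls, 0.28 above IgG RIP (SE 0.11, adjusted p 0.0429 in edgeR's quasi-likelihood test) and 0.19 below input. Of the partners that form the GABA-B receptor, Gabbr1 was called and Gabbr2 was not; the difference between them was not tested.

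The gamma subunit gene Gabrg3 measured 68.4, 98.4 and 73.8 CPM in CELF2-KI RIP libraries, 35.6, 31.9 and 27.7 CPM in those of IgG RIP and 39.3, 40.5 and 32.9 CPM in those of input, a difference of 1.34 (SE 0.17) and 1.10 (SE 0.17). The theta subunit gene Gabrq was higher by 1.64 (SE 0.23) and 1.13 (SE 0.22). Both excesses over input fell short of 2-fold under the other scalings and without CELF2-KI RIP replicate 2 (0.92 for Gabrg3 and 0.91 for Gabrq). With curated rows alone they were -0.12 for Gabrg3 and -0.20 for Gabrq. They were thus not seen without the counts allotted to predicted rows, and the split of counts between rows is an estimate. Against IgG RIP, Gabrg3 was at 0.96 with total counts, and with curated rows at 0.03, while Gabrq was at 0.92 with curated rows. Gabrd, which encodes the delta subunit of extrasynaptic receptors, measured 1.36, 1.16 and 1.16 CPM in CELF2-KI RIP libraries, 5.07, 6.35 and 5.52 CPM in those of IgG RIP and 9.97, 9.64 and 9.09 CPM in those of input. Its log2 difference was -2.20 (SE 0.21) from IgG RIP and -2.96 (SE 0.21) from input. The call of Gabrd against IgG RIP was lost with curated rows (-3.08, adjusted p 0.0247) and with matching versions (-3.07, adjusted p 0.0165 in edgeR's quasi-likelihood test).

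Of 14 genes for scaffold, trafficking and auxiliary proteins of these receptors, all tested, 8 were called higher and 2 lower than IgG RIP, with a median of 1.10, and 4 higher and 2 lower than input, with a median of 0.34. Of the 14, 3 were targets. Over all genes tested the shares were 13.4% and 13.5% against IgG RIP, 14.6% and 15.5% against input and 7.58% for targets. By the DESeq2 Wald test 8 were higher than IgG RIP and 2 higher than input. Nlgn2, the adhesion protein of inhibitory synapses, measured 1396, 1448 and 1384 CPM in CELF2-KI RIP libraries, 530, 578 and 443 CPM in those of IgG RIP and 642, 645 and 635 CPM in those of input, an excess of 1.45 (SE 0.11) and 1.14 (SE 0.11). Lhfpl4, which helps to cluster GABA-A receptors at the synapse, was higher by 1.73 (SE 0.26) and 1.94 (SE 0.26), with a wide range of 475 to 1109 CPM among CELF2-KI RIP libraries. Kctd12, an auxiliary subunit of the GABA-B receptor, was higher by 1.90 (SE 0.23) and 1.47 (SE 0.23), at 306 to 539 CPM against 98.7 to 148 and 139 to 188 CPM.

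The excess of Nlgn2 over input was between 0.68 and 0.999 under the other scalings and short of 2-fold, whereas the excesses of Lhfpl4 and Kctd12 kept the call. Gphn, the gene of the scaffold protein gephyrin, went the other way, at 20.3, 20.7 and 21.4 CPM in CELF2-KI RIP libraries, 72.5, 58.3 and 52.3 CPM in those of IgG RIP and 54.4, 53.0 and 52.7 CPM in those of input, a log2 difference of -1.55 (SE 0.14) and -1.36 (SE 0.14). Gabarap, whose product takes part in the trafficking of GABA-A receptors, was lower, at -1.51 (SE 0.23) and -2.47 (SE 0.24). Shisa7, Gabarapl1, Clptm1 and Kctd12b were higher than IgG RIP by 1.08, 1.11, 1.34 and 1.58 and differed from input by -0.01, 0.32, 0.34 and 0.42, and Plcl1 was called against input alone, at 1.12 (0.65 to 0.98 under the other scalings). The calls of Shisa7 (0.99 without CELF2-KI RIP replicate 3, 0.97 without input replicate 2), Gabarapl1 (0.97 without IgG RIP replicate 1) and Kctd16 (adjusted p 0.0145 in edgeR's test without CELF2-KI RIP replicate 3) each rested on 1 or 2 libraries. Those of Shisa7 and Gabarapl1 were also lost with total counts (0.71 and 0.75), upper-quartile scaling and TMM over coding and noncoding genes, that of Clptm1 with total counts (0.97) and curated rows (0.52), and that of Kctd12b with curated rows (adjusted p 0.266 in edgeR's test), with matching versions (0.24) and without IgG RIP replicates 1 and 2 (0.92). Kctd16 had at most 3.39 CPM in any library.

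Of 9 genes for the synthesis, transport and breakdown of GABA, all tested, 2 were called higher than IgG RIP in edgeR's quasi-likelihood test, among them Slc6a11, which encodes the GABA transporter GAT3. In that comparison 0 were called lower, also at an unadjusted p under 0.05 and by DESeq2. The median was 0.76, also with Slc6a12, at 0 or 1 count in the IgG RIP libraries, set to 6.14-fold. That value is its mean in CELF2-KI RIP over the floor of 3 counts per library in IgG RIP. Slc6a12 had 0, 28 and 24 counts in CELF2-KI RIP replicates 1, 2 and 3, so that the 2 groups overlapped. It was not called (adjusted p 0.0187 in edgeR's quasi-likelihood test). Against input 0 of the 9 were called in edgeR's quasi-likelihood test and 0 by DESeq2, although 5 passed the FDR alone and had an unadjusted p under 0.05 in the higher direction (1 in the lower), including Gad1 at 0.49 and Gad2 at 0.95, the genes of the GABA-synthesising enzymes, and the median was 0.83. With 0 called against input, 0 of these genes were targets. Over all genes tested, 13.4% were called higher and 13.5% lower than IgG RIP, and 14.6% and 15.5% than input. At the FDR alone 26.8% were higher than input, and 7.58% were targets. With 9 genes beside those shares, nothing is read from the counts.

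**Figure D5:**
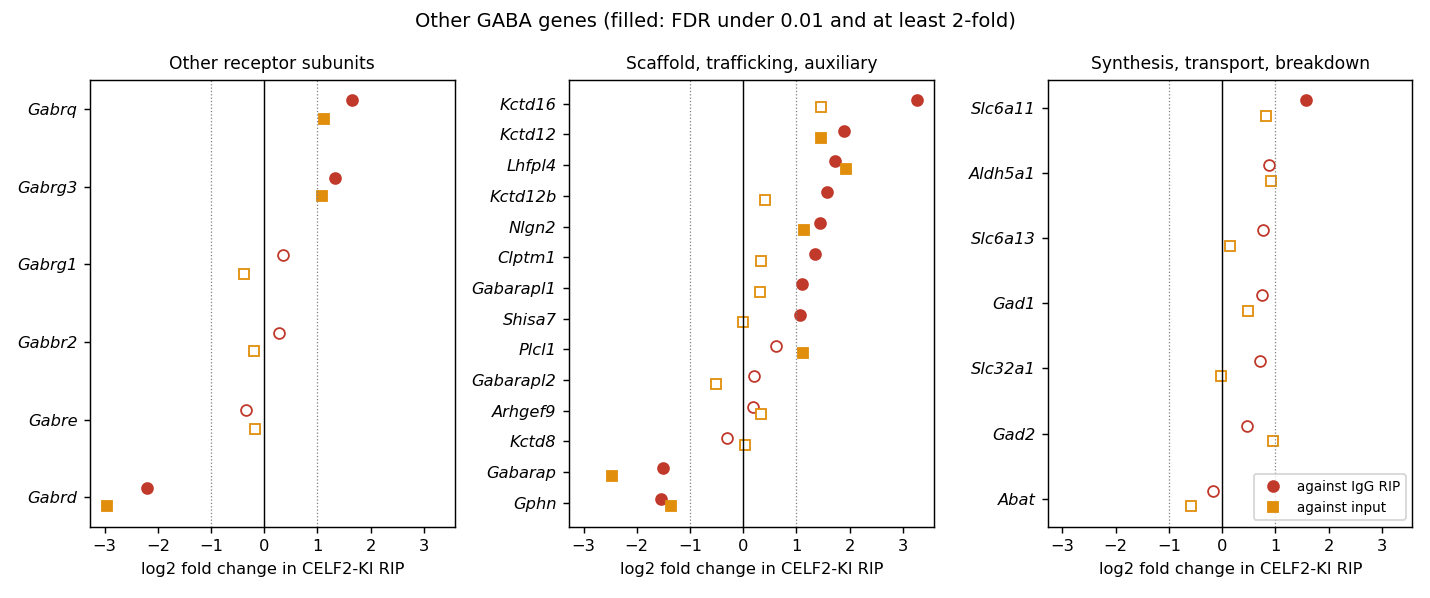
Log2 fold change in CELF2-KI RIP (horizontal axis) against IgG RIP (red circles) and input (orange squares) for genes of 3 lists, filled where FDR was under 0.01 and the change at least 2-fold (dotted lines). Both points are filled on the right for Gabrq, Gabrg3, Kctd12, Lhfpl4 and Nlgn2 and on the left for Gabrd, Gabarap and Gphn; the 2 comparisons share the CELF2-KI RIP libraries, and Slc6a12, at 0 or 1 count in IgG RIP, is not drawn.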

How the data were processed

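RNA of 9 libraries (3 CELF2-KI RIP with 10 μg antibody for 3 h, 3 IgG RIP, 3 input) was depleted of rRNA and made into directional libraries. Per the labels and the study's methods, the authors used FastQC 0.11.9, fastp 0.23.4 and Ribodetector 0.3.1, and deposited estimated counts per RefSeq transcript from kallisto 0.51.1 (submitters' notes: mm10, DESeq2 1.46.0, edgeR 4.4.0). The methods name an Ensembl transcriptome, whereas the deposited rows carry RefSeq accessions. The strand setting of the counting is not given in the sources used here.

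Rows were joined to genes by accession without its version; 20670 of 107384 rows (19.2%) matched no gene and were left out, so that transcripts of the 7 genes under withdrawn accessions may be uncounted. Estimated counts were summed per protein-coding gene, rounded, kept at 0.5 CPM or more in at least 3 libraries, scaled by TMM and tested in 1 fit of all 9 libraries with edgeR 4.0.16 (quasi-likelihood test, Benjamini-Hochberg adjustment, R 4.3.3). TMM factors were 0.771 to 0.878 for CELF2-KI RIP, 1.05 to 1.08 for IgG RIP and 1.12 to 1.16 for input. Rows were fitted alike, and against the other rows of their gene for CELF2-KI RIP against IgG RIP only. CPM for profile likeness used a prior count of 2. Alternatives were other scalings, filters, DESeq2 1.42.0, a test against 2-fold (glmTreat), curated rows, the replicate block and leaving out libraries. Scripts were tested on simulated data. Intervals cover the spread between libraries.

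Replicate numbers come from the sample titles. Same-numbered CELF2-KI RIP and input libraries deviated together weakly (r = 0.110, 0.117 and 0.123 over 15263 genes). Those of CELF2-KI RIP and IgG RIP did not (-0.056, 0.043 and 0.014). The main fit held no replicate term and took the libraries as unpaired. Replicate number entered the alternative with the replicate block only. Replicates were stated to be biological and differed by more than sampling noise. The 7 genes, the lists and the markers were chosen with earlier results of these data known. The text names the 7 genes with all rows, the genes of the GABA lists, Celf2 and the 3 genes most like each of the 7. Some genes of these lists are counted in the list totals but not reported here by name.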

Additional observations from a re-analysis of the deposited data

How the results depend on the processing

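The median log2 fold change of all genes against IgG RIP and input was -0.06 and 0.19 with TMM, -0.12 and 0.05 with DESeq2 size factors, -0.32 and -0.05 with upper-quartile scaling, -0.27 and -0.20 with TMM over coding and noncoding genes, and -0.42 and -0.27 with total counts. Matching versions, the removal of IgG RIP replicates 1 and 2 together, and the gene fit's factors for rows were added after seeing the data.

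The count of the 7 genes called higher than IgG RIP was 2, and 1 with total counts, glmTreat, matching versions, or without IgG RIP replicates 1 and 2; leaving out 1 library gave 2 throughout. Gabrb2 has no row of matching version and was not tested there. The counts called higher than input, and higher than both controls, were 1, and 0 with DESeq2 size factors, total counts, upper quartile, TMM over coding and noncoding genes, no filter, the DESeq2 Wald test, glmTreat, the 2 groups alone, or without IgG RIP replicates 1 and 2; leaving out 1 library gave 0 to 1. The count lower than input was 1, and 2 with total counts, 0 with glmTreat, curated rows or matching versions, and 0 to 1 without 1 library. Lower in IgG RIP than in input were 0, 1 with the DESeq2 Wald test (Gabra3), and 0 to 1 without 1 library (Gabra5 without IgG RIP replicate 3). Other GABA genes higher than IgG RIP were 13, but 8 with total counts or matching versions, 4 with glmTreat and 7 with curated rows. Those higher than both controls were 5, but 2 with DESeq2 size factors, total counts, upper quartile, TMM over coding and noncoding genes, the DESeq2 Wald test or the 2 groups alone, 0 with glmTreat, 3 with curated rows, and 3 to 6 without 1 library. Rows higher than input were 0, and 1 with the gene fit's factors or the DESeq2 Wald test. Without 1 library, rows lower than IgG RIP were 0 to 1 and lower than input 0 to 2.

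With the replicate block, the count of the 7 genes lower than input was 0 (Gabra5), and rows lower than IgG RIP and lower than input were 0 each. The block also moved Gabrb2 row NM_008070.3 below the threshold and no other call among the 7 genes. The block was fitted over all 9 libraries by replicate number, although same-numbered CELF2-KI RIP and IgG RIP libraries did not deviate together.

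Signs that changed were all of differences not called, except Gabrg3 and Gabrq. Gabra2 against IgG RIP was 0.06, but -0.012 with DESeq2 size factors, -0.301 with total counts, -0.203 upper quartile, -0.164 TMM over coding and noncoding genes, -0.03 without filter, -0.011 DESeq2 Wald test and -0.517 without IgG RIP replicates 1 and 2. In the same order of scalings Gabra2 against input was -0.017, -0.337, -0.117 and -0.263, with -0.017 in the DESeq2 Wald test and -0.11 with the 2 groups alone. Gabra2 in IgG RIP against input was -0.005 with DESeq2 size factors, -0.036 with total counts, -0.099 TMM over coding and noncoding genes, -0.006 DESeq2 Wald test and -0.101 with curated rows. Gabra3 against IgG RIP was -0.154 with total counts, -0.047 upper quartile, -0.009 TMM over coding and noncoding genes and -0.183 without IgG RIP replicates 1 and 2. Gabra4 against input was -0.083, -0.403, -0.183 and -0.331 in that order of scalings, -0.063 without filter, -0.083 DESeq2 Wald test, -0.176 with the 2 groups alone, -0.015 with matching versions and -0.054 without IgG RIP replicates 1 and 2. With curated rows Gabra5 against IgG RIP was 1.105 (1.132 with matching versions), Gabrb1 in IgG RIP against input 0.063, Gabrg3 against input -0.118 and Gabrq against input -0.197. Without 1 library, Gabra2 ranged from -0.175 to 0.36 against IgG RIP and from -0.24 to 0.296 in IgG RIP against input, Gabra3 against IgG RIP from -0.113 to 0.451, Gabra4 against input from -0.12 to 0.197, and Gabra5 against IgG RIP from -1.216 to 0.088. The causes were not tested.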
